A study of Mus musculus with 4 samples.

Results

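The respiratory chain genes were taken from the gene list by symbol: names beginning mt-Nd, mt-Co, mt-Cyt or mt-Atp, the families Ndufa, Ndufb, Ndufc, Ndufs and Ndufv, Sdha to Sdhd, Uqcr, Cox4i, Cox5, Cox6, Cox7, Cox8 and Atp5, leaving out pseudogenes. The rule found 110 of 32285 genes, 13 of them encoded in mitochondrial DNA and 97 in the nucleus. No measured value entered the choice. RNA and surface antibodies had been counted in single mouse bone marrow cells positive for CD45.2, the leukocyte form used to mark donor cells, and for Kit, the receptor of stem and progenitor cells, 10 weeks after transplantation. Each of 4 groups, named control, Mll3SI, Mll4SI and Mll3/4SI in the labels, gave 1 library, and values given by library follow that order. The labels do not spell out SI, the genotype of the recipients, the number of animals pooled or their sex. The genes Kmt2c and Kmt2d encode MLL3 and MLL4, enzymes that methylate histone H3, and the study asked what they do in stem cell and myeloid identity and in B-cell priming. With 1 library in a group there was no spread between replicates, so no difference given here has been tested, and every interval covers counting error only, without the spread between animals.

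The respiratory chain moves electrons from NADH and succinate to oxygen through complexes I to IV of the inner mitochondrial membrane, and complex V, the ATP synthase, uses the proton gradient they build. Complexes I, III, IV and V are made of subunits from 2 genomes, the core of each from mitochondrial DNA (in complex V, part of the membrane sector) and the rest from nuclear genes, while complex II is nuclear only. Blood stem cells are known for relying less on respiration than their progeny, and maturing granulocytes for turning to glycolysis.

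The mitochondrial members were 7 subunits of complex I, 1 of complex III, 3 of complex IV and 2 of complex V. The nuclear members were 36 subunits of complex I, 4 of complex II, 8 of complex III, 19 of complex IV (Ndufa4 counted there, where the protein is now placed) and 17 of complex V, 12 assembly factors with names that fit the rule (8 Ndufaf and 4 Sdhaf genes) and Ndufa4l2, a relative of Ndufa4. They lay on 19 chromosomes. Only Ndufb11, Ndufa1 and Cox7b were X-linked.

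The libraries held 7524 to 11678 cell barcodes and 140546094 to 177753607 gene UMIs (unique molecular identifiers, each standing for 1 captured transcript). After filtering, 6743 to 10186 cells were kept, with medians of 16973, 13603, 12800 and 19185 UMIs per cell from control to Mll3/4SI. Pairs of libraries shared 16 to 29 barcodes. Xist, the RNA of the inactive X, stood at 0.0315, 0.194, 1148 and 1360 CPM (UMIs scaled to a total of 1e6 per library or class), and the Y-linked Eif2s3y at 63.3, 62.0, 0 and 0 CPM, so sex-linked RNA separated control and Mll3SI from the other libraries and cannot be told apart from the groups. Kmt2c stood at 110 to 147 CPM and Kmt2d at 33.3 to 41.3 CPM, and these 3′ counts do not check the alleles. Clusters were named from markers that included no respiratory chain gene, and these genes were also left out of the clustering. A total of 7 classes held at least 50 cells in each library: cells like haematopoietic stem and multipotent progenitor cells (HSC/MPP-like), early, intermediate and late granulocyte-like, monocyte-like, erythroid-like and basophil/mast-like cells. B-lymphoid-like cells numbered 37 to 190. Late granulocyte-like cells of Mll4SI sat in other clusters than those of the other libraries. Of its granulocyte-like cells 83.4% lay in 4 clusters that held 3.61% to 8.28% in the others. Clusters 12 and 22 held 37.5% of the granulocyte-like cells of Mll3/4SI and 0.336% to 0.461% of those of the others. Unnamed clusters 10 and 17, of 1260 and 680 Mll3/4SI cells, held 1 to 6 cells of any other library. Cluster 10 raised 6 early granulocyte and 6 basophil/mast markers, and cluster 17 raised 11 HSC/MPP and 6 megakaryocyte markers. They made up 18.7% and 10.1% of the kept Mll3/4SI cells and lie outside the 7 classes. The 167 HSC/MPP-like cells of Mll3/4SI therefore leave cluster 17 out.

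The chain was most abundant in progenitors and lowest in late granulocyte-like cells, a wider gap than any between the libraries of a class. Levels are shares of all gene UMIs of a class. In HSC/MPP-like cells the 13 mitochondrial members took 3.11%, 3.19%, 2.87% and 3.10% of UMIs. The share was much the same in early granulocyte-like cells (3.04%, 3.03%, 3.01% and 2.90%) and in monocyte-like cells (2.96% to 3.16%). It was 1.07% to 1.34% in the intermediate and 0.783% to 0.968% in the late granulocyte-like cells. The late range therefore lay below the intermediate range, and both lay below those of the other 5 classes, which ran from 2.54% to 3.19% and overlapped. The intermediate class was cluster 11 alone, which raised 7 intermediate and 7 late granulocyte markers, so its stage name is a tie. Its 10 leading genes held 3 intermediate and 7 late markers. At Leiden resolution 2 the intermediate cells of control went from 231 to 807.

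The 97 nuclear members followed another order, with less in HSC/MPP-like than in early granulocyte-like cells. They took 1.76%, 1.74%, 1.66% and 1.88% of the UMIs of HSC/MPP-like cells, against 2.31%, 2.32%, 2.09% and 2.39% of those of early granulocyte-like cells. The lowest early library was thus above the highest HSC/MPP library. Monocyte-like cells (2.09% to 2.45%) and erythroid-like cells (2.04% to 2.34%) overlapped the early granulocyte-like range, basophil/mast-like cells (1.61% to 1.86%) overlapped the HSC/MPP range, and late granulocyte-like cells had 1.11% to 1.28%. The ratio of mitochondrial to nuclear UMIs was 1.64 to 1.83 in HSC/MPP-like cells, 1.21 to 1.44 in early and 0.705 to 0.816 in late granulocyte-like cells, so the 2 genomes' shares were not in a fixed proportion. In B-lymphoid-like cells, few as they were, the nuclear share was 2.23% to 2.43%. Median UMIs per cell were 14335 to 20567 in the HSC/MPP, 17582 to 25682 in the early and 11050 to 17462 in the late class. The part of depth in these shares was not tested.

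**Figure D1:**
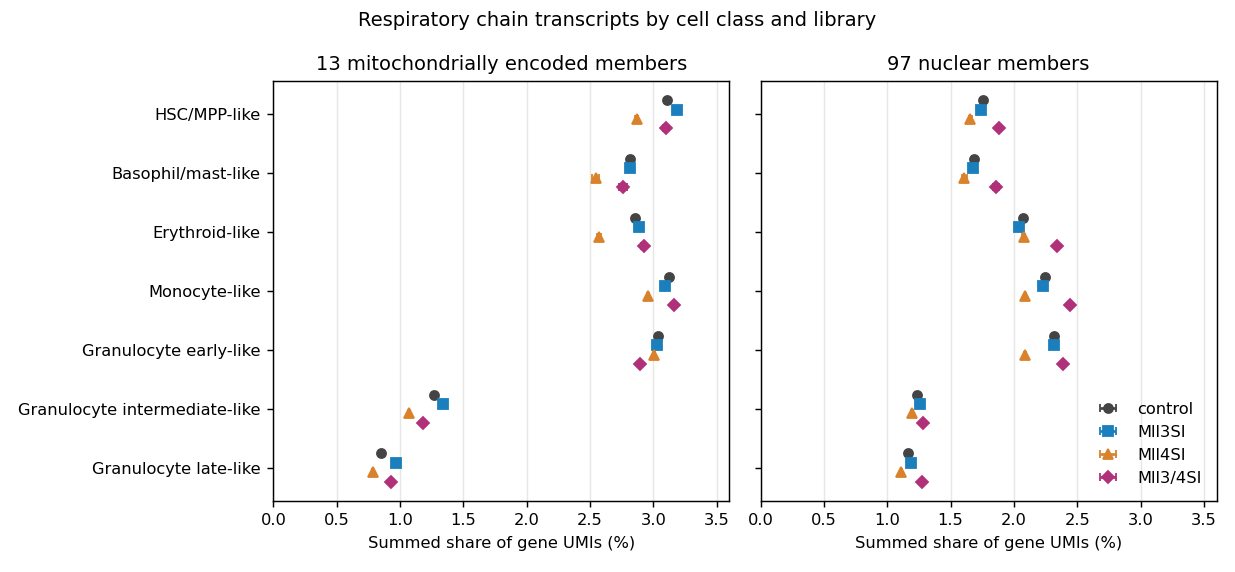
Share of all gene UMIs (percent, x axis) taken by the 13 mitochondrially encoded members (left) and the 97 nuclear members (right) in 7 cell classes (rows), with 1 symbol per library and 95% counting intervals that are mostly narrower than the symbol. The mitochondrial share lies at 2.54% to 3.19% in 5 classes and at 0.783% to 1.34% in intermediate and late granulocyte-like cells, while the nuclear share is lower in HSC/MPP-like than in early granulocyte-like cells of every library.

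Within a class, the groups differed little from control in either share. In HSC/MPP-like cells the mitochondrial share was higher by 0.04 on the log2 scale in Mll3SI (95% interval 0.03 to 0.05), while Mll4SI had -0.12 (-0.12 to -0.11) and Mll3/4SI -0.0043 (-0.01 to 0.01). For the nuclear share, Mll3SI had -0.01, Mll4SI had -0.08 (-0.10 to -0.07) and Mll3/4SI had 0.10 (0.09 to 0.12). Early granulocyte-like cells of these groups had the nuclear share at 0.0026, -0.15 and 0.05 and the mitochondrial share at -0.0046, -0.02 and -0.07. The Mll3/4SI nuclear share was above control in all 7 classes, by 0.05 in early granulocyte-like to 0.17 in erythroid-like cells, and the Mll4SI nuclear share was below control in 6 of them, with 0.0014 in erythroid-like cells. The classes of a library share its preparation and depth and are no replicates, and the late granulocyte-like class of Mll4SI and of Mll3/4SI rests in part on the clusters that are nearly their own.

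Most cells in each library carried 1 of 2 hashtag antibodies. Both were found on 2.24%, 4.71%, 5.52% and 2.55% of the kept cells from control to Mll3/4SI, and neither on 23 to 31 cells a library. Such cells stayed in the class sums and were left out of the hashtag comparisons. What these marked is not in the labels. The hashtags give a size for differences inside a library. The nuclear share of HSC/MPP-like cells was 1.72% with Hashtag1 and 1.80% with Hashtag2 in the control library. For Mll3SI these were 1.79% and 1.69%, for Mll4SI 1.75% and 1.59%, and for Mll3/4SI 1.96% and 1.74%. The Hashtag2 cells of Mll3/4SI were thus below the Hashtag2 cells of control, while its Hashtag1 cells stood above every other set. On the log2 scale the hashtags differed by -0.17 to 0.06 within libraries in this class, by -0.14 to 0.04 in early granulocyte-like and by -0.07 to 0.03 in monocyte-like cells. The differences from control in HSC/MPP-like cells (-0.08 to 0.10) were no larger than that. In monocyte-like cells the 0.13 of Mll3/4SI was larger than its hashtags' difference. Both hashtags of Mll4SI lay below both of control in early granulocyte-like cells (2.16% and 2.05% against 2.28% and 2.34%). They did so in monocyte-like cells too (2.14% and 2.04% against 2.22% and 2.27%).

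Pooled over stages, granulocyte-like cells showed wider gaps that moved with their stage mix. From control to Mll3/4SI the mitochondrial share was 1.36%, 1.64%, 1.01% and 1.18%, and the nuclear share 1.42%, 1.55%, 1.21% and 1.41%. Early cells made up 15.4%, 23.8%, 5.88% and 8.83% of the granulocyte-like cells of these libraries. Weighted to the control's stage mix, the mitochondrial difference from control of Mll3SI went from 0.28 to 0.11, that of Mll4SI from -0.42 to -0.08 and that of Mll3/4SI from -0.20 to 0.04. At the level of genes, 11 of the 87 nuclear members at 10 CPM or more were lower by at least 0.5 on the log2 scale of CPM + 1 in Mll4SI, where 10.9% of all 7288 genes were, and 0 were higher (2.74% of genes). The share of members lower was thus near that of all genes. They included the assembly factors Ndufaf4 (-0.99), Ndufaf6 (-0.88) and Ndufaf2 (-0.63) and the subunit genes Atp5g1 (-0.73) and Ndufa12 (-0.71), and the others were Ndufs5, Ndufb2, Sdhaf1, Ndufab1, Uqcr11 and Ndufv1. In Mll3SI, 2 members were higher (Sdhaf4 by 0.67 and Ndufaf4 by 0.57; 2.04% of genes) and 0 lower (1.45%), and in Mll3/4SI 2 were lower (Ndufaf4 at -0.81 and Ndufaf6 at -0.52; 5.23%) and 0 higher (1.63%). Among early cells alone, Ndufaf4 differed from control by 0.13, -0.08 and -0.40 in the 3 groups.

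From early to late granulocyte-like cells nearly the whole chain was lower in each of the 4 libraries. Because stages were defined by clusters of the same cells, this is a description. Of the 89 nuclear members with at least 10 CPM on average over both stages and the 4 libraries, 83 were lower in late cells of all 4 libraries, and 70 were lower by at least 0.5 on the log2 scale of CPM + 1 in all 4, which is 78.7%, against 37.6% of 7706 genes. None was higher by that much in all 4, against 19.7% of genes. Their median was -0.98, against -0.28 for all genes. All 13 mitochondrial members passed the same fold, with a median of -1.97.

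The complexes had medians of similar size, which were -0.79 for complex I (27 of 36 subunits past the fold in all 4 libraries), -0.90 for complex II (3 of 4), -1.19 for complex III (8 of 8), -0.83 for complex IV (11 of 13) and -0.95 for complex V (13 of 17). The assembly factors spread more widely, with a median of -2.33 but 8 of 11 past the fold and 1, Ndufaf3, higher in all 4 libraries, and the difference between these groups was not tested. Ndufaf4, which helps build complex I, had the lowest value: its CPM was 55.0, 60.4, 52.0 and 41.4 in early cells and 1.92, 2.33, 1.70 and 2.43 in late cells, a mean log2 difference of -4.10. The late values lay far below the early ones in each library. Ndufaf6 and Ndufaf2, other complex I factors, followed at -2.80 and -2.51, and Sdhaf1, Sdhaf3 and Sdhaf4, which serve complex II, at -2.33, -2.42 and -2.33.

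Genes for the same subunit did not move alike. The c-subunit of the ATP synthase rotor is encoded by Atp5g1, Atp5g2 and Atp5g3, which make the same mature protein. Atp5g1 stood at 644, 662, 521 and 579 CPM in early cells and 89.2, 98.6, 86.4 and 111 CPM in late cells (mean log2 difference -2.63), while Atp5g2 and Atp5g3 were at -1.43 and -1.33. Among the mitochondrial members mt-Nd2 was at -2.57, mt-Nd1 at -2.47 and mt-Cytb at -2.44, and mt-Co1, the catalytic subunit of complex IV, at -1.05. All mitochondrial messages except that of mt-Nd6 come from transcripts of 1 strand. A few nuclear members had nearly the same share in both stages. Cox6a1 stood at 155 to 209 CPM in early and 166 to 201 CPM in late cells (mean log2 difference 0.02), Ndufs4 was at -0.05, Ndufa3 at -0.08 and Sdhb, the iron-sulfur subunit of complex II, at -0.11. Ndufb7, Ndufv3 and Ndufaf3 were higher in late cells of all 4 libraries (0.20, 0.20 and 0.14).

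Genes outside the chain gave the scale of this. The mitochondrial ribosome, which translates the mitochondrial messages, had 70 of 77 genes past the fold in all 4 libraries (median -1.37), and the cytosolic ribosome 83 of 83 (-2.46). The tricarboxylic acid cycle and pyruvate dehydrogenase had 12 of 16 lower and 1 higher (-0.93), assembly genes outside the symbol rule 18 of 21 lower (-1.08), and electron carriers and entry enzymes 5 of 9 lower and 1 higher (-0.79). Glycolysis had 6 of 18 lower and 3 higher (-0.39), and genes for mitochondrial transcription and its regulators 4 of 11 lower and 1 higher (-0.27). These are shares of a cell's UMIs. The part of other abundant transcripts in these shares was not tested.

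**Figure D2:**
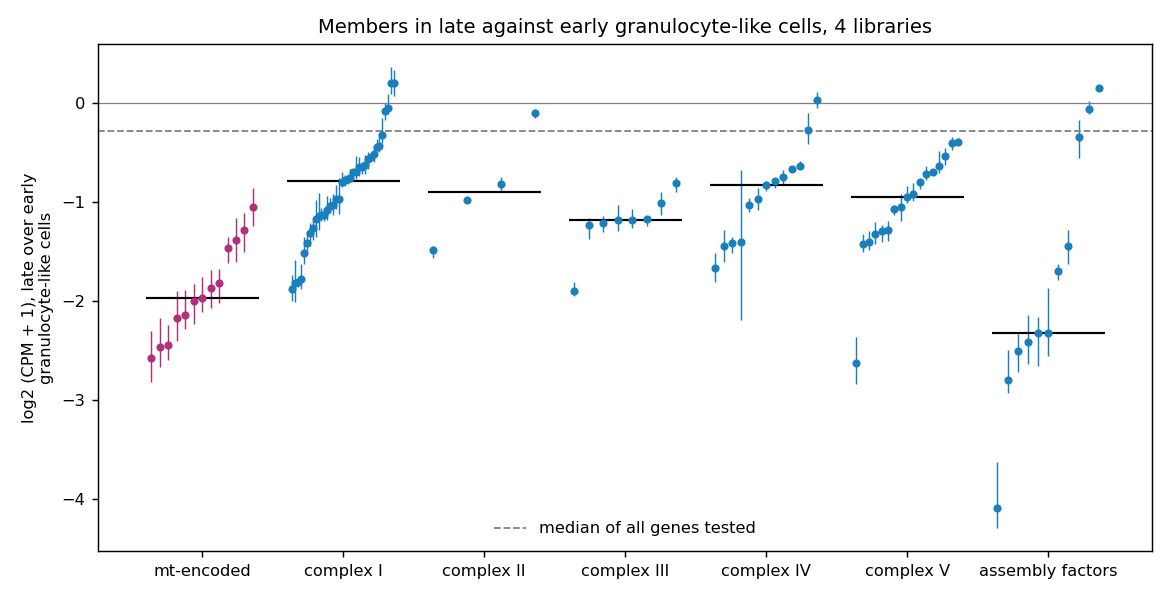
Mean over 4 libraries of the log2 difference of CPM + 1 between late and early granulocyte-like cells (y axis) for each member with at least 10 CPM, grouped by complex. Points are genes, thin bars run from the lowest to the highest library, black lines are group medians (-1.97 for mitochondrial members, -2.33 for assembly factors) and the dashed line is the median of all genes (-0.28). Nearly every bar lies below 0.

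Gene by gene, few members in HSC/MPP-like cells stood apart from control. At 10 CPM or more on average, 91 of 97 nuclear members were measured. Cox6a2 is among them only through its high Mll3/4SI value, so its place in the counts that follow is a description. In Mll3SI 1 was higher by at least 0.5 (Cox6a2; 1.27% of 8792 genes were) and 0 were lower (1.14%). In Mll4SI 0 were higher (3.41%) and 2 lower (Cox6a2 and Ndufa3; 2.92%). In Mll3/4SI 2 were higher (Cox6a2 and Cox7b; 2.25%) and 1 lower (Ndufaf5; 2.91%). These shares of members are near those of all genes. The members' medians were -0.02, -0.09 and 0.08, beside 0.01, 0.0014 and -0.05 for all genes. For early granulocyte-like cells 90 nuclear members were measured, and 0 passed in Mll3SI (0.559% of 7870 genes higher, 0.724% lower). In Mll4SI Cox6b2 was higher and 0 were lower (2.87% and 1.93%), and in Mll3/4SI Cox6b2 and Ndufa3 were higher and 0 lower (2.94% and 1.92%). The medians were 0.01, -0.14 and 0.04, beside -0.03, -0.04 and -0.04.

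By complex, the HSC/MPP-like cells of Mll3/4SI had 13 of 14 complex IV subunits above control (median 0.28), 27 of 36 of complex I (0.09), 7 of 8 of complex III (0.12), 10 of 17 of complex V (0.03) and 4 of 12 assembly factors (-0.03). Those of Mll4SI had 2 of 14, 10 of 36, 1 of 8, 3 of 17 and 5 of 12 above control. Other genes were split at 908 nt, the median transcript length of the nuclear members with at least 10 CPM over all kept cells. Of these other genes, 269 of 468 shorter and 3093 of 8220 longer ones were above control in Mll3/4SI, and 173 of 468 and 4216 of 8220 in Mll4SI. Complex II was level: Sdha, its flavoprotein subunit, stood at 120, 128, 112 and 118 CPM, Sdhb at 70.0, 72.8, 60.2 and 76.6, and the membrane anchors Sdhc and Sdhd at 79.8 to 85.2 and 109 to 126.

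At the ends of the range in HSC/MPP-like cells, some genes recurred. Uqcrq, a small subunit of complex III, stood at 155, 185, 141 and 211 CPM, among the 5 highest members in Mll3SI (0.26) and Mll3/4SI (0.44). Ndufa4 stood at 1192, 1424, 1382 and 1215 CPM, among the 5 highest in Mll3SI (0.26) and Mll4SI (0.21) and level with control in Mll3/4SI. Atp5k, a small subunit of the ATP synthase membrane sector, stood at 111, 89.5, 86.8 and 131 CPM, among the 5 lowest in Mll3SI (-0.31) and Mll4SI (-0.35). Mll3/4SI was above control for Uqcrq and Atp5k, and Mll4SI was below it. The 5 lowest of Mll3/4SI were the assembly factors Ndufaf5, Ndufaf1 (-0.35), Ndufaf6 (-0.29) and Sdhaf3 (-0.22) and the acyl carrier subunit Ndufab1 (-0.19). Sdhaf3 was among the 5 highest in Mll3SI (0.24) and Mll4SI (0.39).

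Abundant complex IV subunits of HSC/MPP-like cells differed less. Cox8a stood at 546, 486, 485 and 675 CPM, Cox7c at 399, 368, 372 and 504 CPM and Cox6c at 391, 360, 363 and 493 CPM, each highest in Mll3/4SI and lower in Mll3SI and Mll4SI than in control. Cox5a had another order, at 540, 586, 464 and 482 CPM, and its partner Cox5b stood at 267, 249, 226 and 290 CPM. Cox7a2l, which helps join complexes III and IV, was level at 332 to 344 CPM. The ATP synthase c-subunit genes stood at 304 to 356 (Atp5g1), 617 to 668 (Atp5g2) and 296 to 342 CPM (Atp5g3). These 3′ UMI counts are not scaled by transcript length and rank no gene against another.

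Ndufa3, a small accessory subunit of complex I, had the same order of libraries in HSC/MPP-like, early granulocyte-like and monocyte-like cells. From control to Mll3/4SI it stood at 69.5, 58.3, 42.8 and 97.6 CPM in HSC/MPP-like cells, log2 differences of -0.25 (-0.44 to -0.07), -0.69 (-0.91 to -0.49) and 0.48 (0.30 to 0.68). Its level in early granulocyte-like cells was 88.3, 73.5, 64.8 and 132 CPM, and in monocyte-like cells the log2 differences were -0.27, -0.40 and 0.51. By hashtag, HSC/MPP-like cells of control gave 70.3 and 69.7 CPM, Mll3SI 56.6 and 62.5, Mll4SI 44.3 and 40.5, and Mll3/4SI 106 and 83.8, with no overlap between libraries, although the gap within Mll3/4SI was wider than that from its Hashtag2 cells to control. The gene (chr7:3617373-3620327, plus strand, mm10) overlaps the end of Tfpt on the other strand by a few bases.

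Cox7b, an X-linked small subunit of complex IV, was higher in HSC/MPP-like cells of Mll3/4SI alone among the libraries, at 174, 179, 170 and 259 CPM (0.58 in Mll3/4SI, 0.46 to 0.70). Its hashtags gave 282 and 219 CPM in Mll3/4SI and 150 to 200 CPM in the other libraries. The values in early granulocyte-like cells were 340, 316, 312 and 368 CPM. The other X-linked members in HSC/MPP-like cells were Ndufb11 at 227 to 258 CPM and Ndufa1 at 88.0, 75.9, 75.9 and 105 CPM. Over the 7 classes Cox7b was above control in all of Mll3/4SI and in 3 of Mll4SI. The part of sex-linked differences in these values was not tested. Ndufaf5, an assembly factor of complex I, rested on few counts, 138, 96, 96 and 34 UMIs or 14.5, 14.3, 15.7 and 9.40 CPM (-0.57 in Mll3/4SI, -1.21 to -0.07), and the early granulocyte-like value was -0.06.

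The widest differences among the 13 mitochondrial members were in scarce ones. mt-Atp6 and mt-Co3 gave 25.8% and 23.4% of the mitochondrial UMIs in control HSC/MPP-like cells, and 25.1% and 22.1% in Mll3/4SI. mt-Nd3, a small complex I subunit, stood at 246, 193, 194 and 337 CPM in HSC/MPP-like cells (-0.35, -0.34 and 0.45 against control) and 230, 193, 210 and 290 in early granulocyte-like cells. mt-Nd4l stood at 86.8, 74.6, 109 and 116 CPM and mt-Atp8 at 42.3, 39.5, 60.8 and 54.2 CPM in HSC/MPP-like cells, and mt-Atp8 in Mll4SI was the only mitochondrial member to reach 0.5 there (0.51). Both share bases with a more abundant neighbour, mt-Nd4 and mt-Atp6, so that reads may be split between them.

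A small shift shared by many members became visible across the classes. In Mll3/4SI, 31 of 82 nuclear members with at least 10 CPM in all 7 classes were above control in every class, which is 37.8%, where 4.14% of 5802 genes were. Only Ndufs1, Ndufa8 and Atp5a1 were below control in every class, against 9.62% of genes. The 31 were led by Atp5k (median log2 over classes 0.50), Ndufa3 (0.47), Uqcrq (0.46), Ndufc1 (0.41), Ndufa5 (0.41), Ndufa1 (0.38), Atp5e (0.38) and Cox7b (0.37), all small subunits of complexes I, III, IV and V, and 4 of 13 mitochondrial members did the same: mt-Nd3 (0.45), mt-Nd4l (0.33), mt-Atp8 (0.26) and mt-Nd6 (0.22). In Mll3SI 13 nuclear members were higher in all 7 classes (11.1% of genes) and 19 lower (5.79%). The higher ones were led by Ndufa8 (0.27), Cox5a (0.24), Uqcrq (0.23) and Ndufa4 (0.23), and the lower ones by Ndufa3 (-0.26) and Ndufa5 (-0.25). In Mll4SI 0 nuclear members were higher (6.03%) and 17 lower (9.5%), led by Ndufa3 (-0.44), Ndufs5 (-0.38) and Atp5mpl (-0.28), while mt-Nd4l (0.25) and mt-Nd6 (0.21) were higher in all 7 and mt-Co2, mt-Atp6 and mt-Co3 lower.

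In Mll3SI and Mll3/4SI these shifts ran with the length of the transcript, and in Mll4SI less evenly. Spearman's rho between transcript length and log2 difference across the 91 members in HSC/MPP-like cells was 0.33 (Mll3SI), 0.31 (Mll4SI) and -0.48 (Mll3/4SI), and -0.04, 0.15 and -0.12 across 8688 other genes. Among early granulocyte-like cells it was 0.40, 0.23 and -0.46 across 90 members and -0.26, 0.12 and -0.03 across 7767 other genes. Over all 7 classes Mll3SI had values of 0.19 to 0.43, Mll4SI of 0.06 to 0.31 and Mll3/4SI of -0.48 to -0.24, and in pooled granulocyte-like cells of Mll4SI it was -0.13. The points share their libraries and are no independent replicates. Length was that of the longest transcript marked as principal in the annotation, or else the longest, which need not be the form expressed. Some small subunits, such as Uqcrq (1521 nt) and Cox7b (1001 nt), thus counted as longer. Among nuclear members up to 908 nt, 22 of 43 were above control in all 7 classes of Mll3/4SI, and 9 of 39 longer ones. Of other genes up to that length 19.6% were, and of longer ones 2.67%. In Mll3SI 17 of the 43 shorter members were below control in all 7 classes (9.32% of other genes of that length), and 2 of the 39 longer ones. In Mll4SI 27.9% of the shorter members were below control in all 7 classes, near the 24.8% of other genes of that length.

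Library depth moved with this pattern in part, while the hashtags moved shorter and longer members in the same direction in HSC/MPP-like cells. In each of the 7 classes Mll3/4SI had the highest median UMIs per cell of the 4 libraries, and the Mll3SI median was under the control's (for monocyte-like cells 28454, 22149, 25015 and 33695 from control to Mll3/4SI). Malat1, a nuclear RNA, took 0.319%, 0.309%, 0.318% and 0.453% of UMIs in early granulocyte-like cells. The part of depth or RNA quality in the length pattern was not tested. With Hashtag1 cells, the summed share in HSC/MPP-like cells of Mll3/4SI was 0.21 above control for shorter and 0.15 for longer members. With Hashtag2 cells the values were -0.02 and -0.10. For early granulocyte-like cells they were 0.16 and 0.07 with Hashtag1, and 0.0005 and -0.13 with Hashtag2. For monocyte-like cells they were 0.18 and 0.10 with Hashtag1, and 0.10 and 0.06 with Hashtag2. The shorter members of Mll3/4SI thus stood above the longer ones with either hashtag. For HSC/MPP-like cells of Mll3SI, shorter and longer members were at 0.05 and 0.06 with Hashtag1. With Hashtag2 they were at -0.08 and -0.11, the other order. For monocyte-like cells of Mll3SI they were 0.01 and 0.04 with Hashtag1, and -0.05 and -0.03 with Hashtag2. For early granulocyte-like cells they were 0.04 and 0.06, and -0.04 and -0.03.

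**Figure D3:**
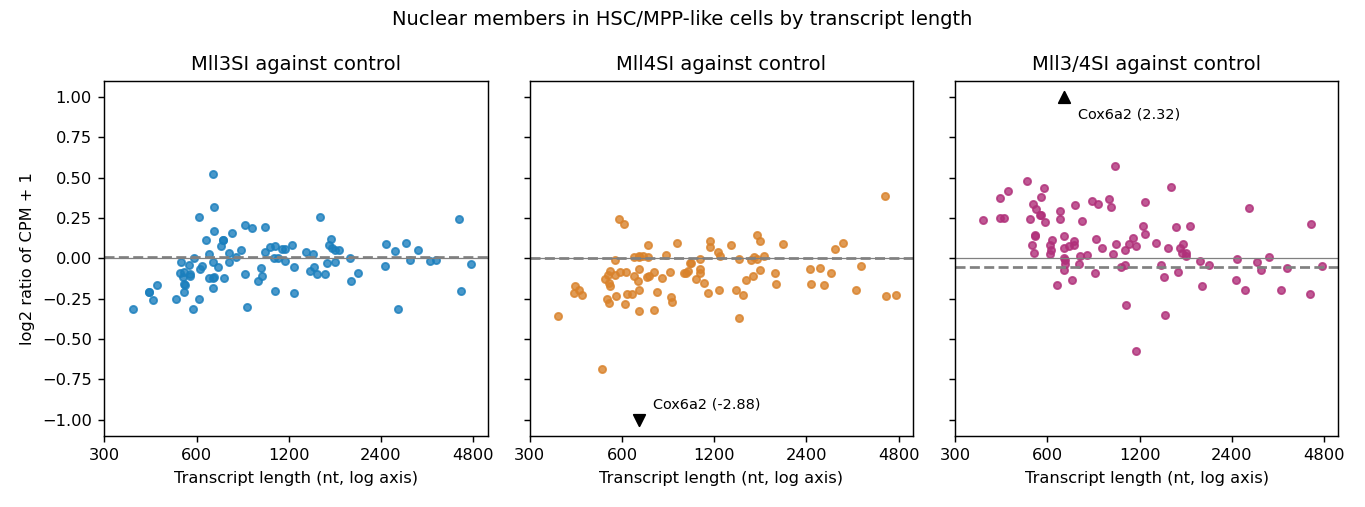
Log2 ratio of CPM + 1 against control (y axis) in HSC/MPP-like cells for the 91 nuclear members by transcript length (x axis, nt, log scale), with 1 panel per group. The dashed line is the median of all 8792 genes. Short members sit above it in Mll3/4SI (rho -0.48) and more often below it in Mll3SI (0.33), and Cox6a2, beyond the axis, is drawn at the edge with its value.

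Subunits with alternative genes held the widest differences. Complex IV carries several subunits that exist as a common form and a form restricted to certain tissues, such as Cox6a1 and Cox6a2 (heart and muscle) or Cox6b1 and Cox6b2 (testis). Cox7b2, Cox8b, Cox8c and Ndufa4l2 had 0 to 2 UMIs in any library. Cox7a1 stood at 0.298 to 0.829 CPM in HSC/MPP-like cells. Cox4i2, the form of Cox4 known from lung, had 16, 18, 0 and 10 UMIs in HSC/MPP-like cells from control to Mll3/4SI. The common forms were steadier there: Cox4i1 stood at 534 to 580 CPM, Cox6a1 at 92.8 to 129 CPM and Cox6b1 at 277 to 305 CPM.

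The bases around the start of the common genes and of Cox6b2 are shown to set a common and a tissue-restricted form of 1 subunit side by side. Of the 97 nuclear members, 79 were found by symbol in the RefSeq promoter table (GRCm38.p6, 250 bases before to 50 after the start). The palindromic motif of NRF-1, a known activator of these genes, was present on either strand in 20 of 79, or 25.3%, and in 4.78% of 27025 promoters of the same length. CCGGAAG, of the type bound by ETS factors such as GABP, was in 21, or 26.6%, against 9.12%. AAGATGGCG, of the YY1 type, was in 7, or 8.86%, against 1.49%. The ETS and YY1 types can share the letters AAG. In all, 41 of 79 held at least 1 (51.9% against 14%). A match of letters is not a site of binding, and common forms such as Cox5a, Cox5b, Cox7a2, Cox7b and Cox7c held none of the 3 in this window, so their lack does not set Cox6b2 apart. In the sequences, read 5′ to 3′ along the gene, capitals mark matches on either strand: 2 of the NRF-1 type and 1 of the ETS type in Cox6a1, 1 of the ETS type in Cox6b1, and 0 in Cox6b2.
Cox6a1 (chr5:115348909-115349208, minus strand): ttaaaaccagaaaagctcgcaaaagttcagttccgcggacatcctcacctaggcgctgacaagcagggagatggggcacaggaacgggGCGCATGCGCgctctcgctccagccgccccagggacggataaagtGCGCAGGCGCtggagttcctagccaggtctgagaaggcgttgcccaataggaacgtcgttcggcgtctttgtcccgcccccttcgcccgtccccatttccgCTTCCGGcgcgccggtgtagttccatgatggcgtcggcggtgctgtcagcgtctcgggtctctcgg
Cox6b1 (chr7:30626065-30626364, minus strand): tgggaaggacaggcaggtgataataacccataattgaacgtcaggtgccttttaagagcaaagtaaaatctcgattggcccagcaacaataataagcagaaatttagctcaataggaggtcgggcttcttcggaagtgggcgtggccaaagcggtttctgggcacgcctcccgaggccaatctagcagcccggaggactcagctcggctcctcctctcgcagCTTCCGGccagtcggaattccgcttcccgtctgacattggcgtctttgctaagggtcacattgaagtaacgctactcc
Cox6b2 (chr7:4753045-4753344, minus strand): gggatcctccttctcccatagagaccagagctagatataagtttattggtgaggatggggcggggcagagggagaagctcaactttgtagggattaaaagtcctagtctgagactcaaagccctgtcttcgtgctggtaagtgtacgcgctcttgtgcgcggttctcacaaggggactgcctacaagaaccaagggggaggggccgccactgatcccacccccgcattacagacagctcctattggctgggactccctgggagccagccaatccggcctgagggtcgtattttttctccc

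Most UMIs of Cox6a2 (60.4%) lay in HSC/MPP-like cells, and the gene differed between the libraries more than any other member measured there. From control to Mll3/4SI it had 95, 99, 3 and 194 UMIs, or 9.97, 14.8, 0.490 and 53.6 CPM. Mll3/4SI was highest and Mll4SI lowest, with counting intervals of 46.4 to 61.7 and 0.101 to 1.43 CPM. Counting intervals take each UMI as independent and leave out the spread between cells. They are therefore too narrow for a gene whose UMIs lie in few cells. Both hashtags of Mll3/4SI (29.8 and 92.2 CPM) lay outside its interval. Against control the log2 difference of CPM + 1 was 0.52 for Mll3SI, -2.88 for Mll4SI and 2.32 for Mll3/4SI, and the counting intervals of the ratio without the added 1 were 0.15 to 0.99, -6.65 to -2.75 and 2.07 to 2.80.

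The UMIs lay in few cells. From control to Mll3/4SI a UMI was found in 5.92% of cells (Clopper-Pearson 95% interval 3.97% to 8.44%), 8.56% (6.13% to 11.6%), 0.929% (0.192% to 2.69%) and 16.2% (10.9% to 22.6%). With each cell thinned to 8000 UMIs, leaving out 18, 46, 12 and 4 shallower cells, the shares were 3.96%, 6.78%, 0.322% and 11.0%. The 10 highest cells of Mll3/4SI held 158 of its 194 UMIs, with 33 in 1 cell. By hashtag, control had 8.19 and 12.1 CPM, Mll3SI 20.05 and 7.81, Mll4SI 0.657 and 0, and Mll3/4SI 29.8 and 92.2, so the Mll3SI values lay on either side of control, and those of Mll4SI and Mll3/4SI did not.

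HSC/MPP-like cells held 391 of all 647 UMIs, or 60.4%, and the rest lay in other cells. Monocyte-like cells had 1.86, 1.29, 0.442 and 1.38 CPM. Among granulocyte-like cells 0.0129% to 0.146% held a UMI, at median depths of 11361 to 17784 UMIs. The part of free RNA in these values was not tested. Unnamed cluster 8, in which 4 HSC/MPP markers and 2 early granulocyte markers were raised, had 4.74, 4.89, 0.748 and 2.54 CPM. These values were below those of HSC/MPP-like cells in each library but Mll4SI. The gene (chr7:128205435-128206387, minus strand, mm10) lies inside Itgad on the other strand.

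The summed lymphoid-primed, B-lymphoid and dendritic markers of HSC/MPP-like cells were also lowest in Mll4SI and highest in Mll3/4SI, though for the lymphoid lists Mll3SI was close to the latter. The 11 lymphoid-primed markers summed to 913, 1052, 571 and 1059 CPM from control to Mll3/4SI, with 0, 0, 1 and 0 of them without a UMI. The 15 B-lymphoid markers summed to 197, 306.8, 90.7 and 310 CPM (1, 0, 5 and 4 at 0), and the 14 dendritic markers to 723, 810, 562 and 952 CPM (3, 2, 4 and 3 at 0). The lists share genes, so their sums are not independent. Dntt, in both lymphoid lists, stood at 147, 205, 67.9 and 244 CPM, the larger part of the B-lymphoid sum in each library. With Dntt left out, both lymphoid sums were highest in Mll3SI and still lowest in Mll4SI. Flt3, in the lymphoid-primed and dendritic lists, stood at 177, 177, 98.4 and 193 CPM. Siglech, a marker of plasmacytoid dendritic cells, stood at 0.315, 1.34, 0.327 and 3.04 CPM. Il7r was highest in Mll3SI (10.4, 20.6, 2.45 and 15.8 CPM), and Siglech in Mll4SI was level with control. Other lists ran otherwise: the 17 T/NK markers summed to 282, 203, 173 and 66.9 CPM and the 18 HSC/MPP markers to 4608, 5116, 5538 and 4423 CPM. The 13 late granulocyte markers summed to 1981, 3094, 12176 and 1428 CPM, highest in Mll4SI. The dendritic-like cluster itself, with 14 to 37 cells a library, held 0 UMIs of Cox6a2. The part of such cells in the Cox6a2 values was not tested.

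Cox6b2 was measured in all named classes and was the nuclear member that was highest against control in early granulocyte-like cells of both Mll4SI and Mll3/4SI. It stood at 42.0, 32.9, 79.5 and 66.1 CPM there, log2 differences of -0.34 (-0.51 to -0.20), 0.90 (0.76 to 1.08) and 0.64 (0.49 to 0.82). In monocyte-like cells it stood at 35.5, 30.1, 64.8 and 46.1 CPM, again highest in Mll4SI (0.85, 0.75 to 0.98). In erythroid-like cells, where the gene was most abundant in control, the order turned, with 121, 109, 69.6 and 144 CPM and Mll4SI lowest (-0.79, -0.98 to -0.61). The erythroid-like class raised 13 erythroid, 11 HSC/MPP and 9 megakaryocyte markers. At Leiden resolution 2 the erythroid-like cluster held 296, 258, 135 and 84 cells. An unnamed cluster there, with 11 megakaryocyte markers raised, held 104, 154, 82 and 35 cells. The part of such a mix in the Cox6b2 values was not tested. HSC/MPP-like cells had 44.3, 35.5, 52.6 and 60.3 CPM.

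Both hashtags of Mll4SI lay on the same side of control in each of these 3 classes. In early granulocyte-like cells of Mll4SI they gave 74.3 and 87.0 CPM, against 46.1 and 39.4 in control, and in erythroid-like cells 76.5 and 70.3 CPM against 114 and 135. In monocyte-like cells they gave 59.9 and 69.7 CPM against 36.8 and 34.7. Mll3SI was below control in these classes and in HSC/MPP-like cells. Late granulocyte-like cells had 16.5 to 20.2 CPM in every library, without a gap. The unnamed clusters of Mll3/4SI cells, 10 and 17, had 107 and 95.9 CPM in that library. The gene (chr7:4751792-4753094, minus strand, mm10) has no other gene over it in the annotation used, and its common counterpart Cox6b1 stood at 353 to 412 CPM in early granulocyte-like cells (-0.11, -0.15 and 0.07 against control).

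**Figure D4:**
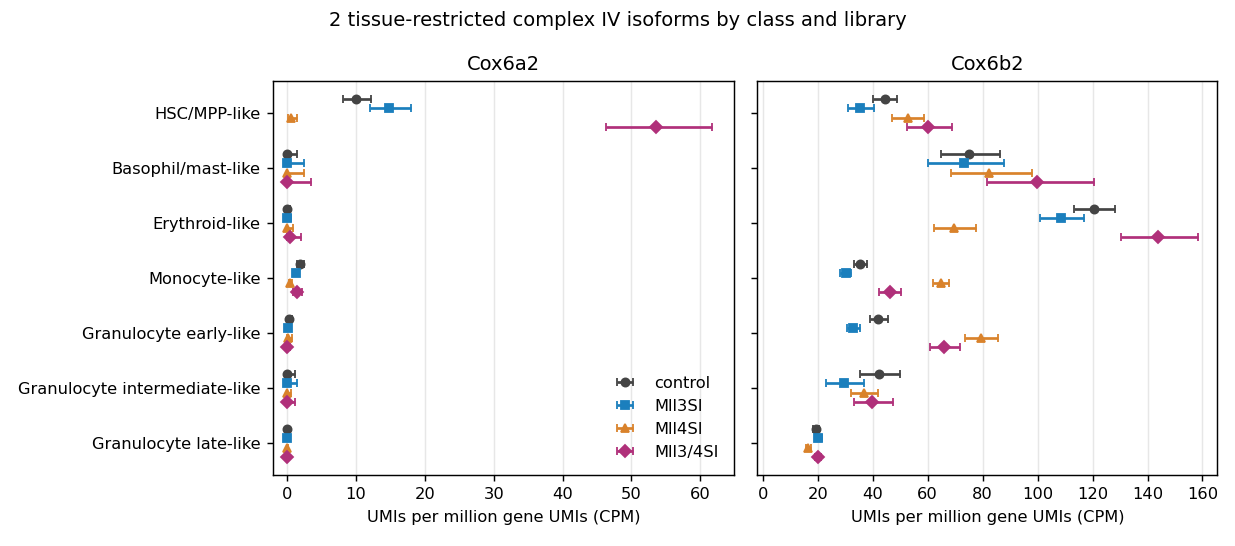
Level of Cox6a2 (left) and Cox6b2 (right) in CPM (x axes, different scales) in 7 classes, with 1 symbol per library and exact Poisson 95% intervals. Cox6a2 stands at 53.6 in HSC/MPP-like cells of Mll3/4SI and at 0.490 in those of Mll4SI, and Cox6b2 in Mll4SI lies above control in early granulocyte-like and monocyte-like cells and below it in erythroid-like cells.

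In lists outside the chain few genes passed 0.5 in the same comparisons. For HSC/MPP-like cells 0 of 16 genes for mitochondrial transcription and its regulators passed 0.5 in any group, and the mitochondrial ribosome had medians of -0.01, -0.12 and -0.03 over 78 genes in Mll3SI, Mll4SI and Mll3/4SI, with 1 past 0.5 (Mrpl47, in Mll3/4SI). Glycolysis had 1 of 18 genes lower in Mll4SI and in Mll3/4SI, Hk3 in both, and 0 past 0.5 in Mll3SI. The tricarboxylic acid cycle and pyruvate dehydrogenase had 0 of 16 past 0.5 in each group, with medians of 0.04, 0.01 and -0.05. Of 26 assembly genes outside the symbol rule, Cox18 was higher in Mll3/4SI (0.52) and Uqcc2 lower in Mll4SI (-0.56). Lyrm7, a complex III factor, was higher in each group (4.72, 18.5, 11.6 and 11.3 CPM from control to Mll3/4SI, or 1.77, 1.14 and 1.11). With a mean of 11.5 CPM it is among the 26 only through its high Mll3SI value, so its place here is a description. Its mean in early granulocyte-like cells, 8.13 CPM, was under the minimum of 10 CPM. Early granulocyte-like cells of Mll4SI had Uqcc2 (-0.68) and Bcs1l (-0.64) lower. There the mitochondrial ribosome had medians of 0.06, -0.19 and -0.12, and Pprc1, a coactivator of these genes, was the only regulator past 0.5, lower in Mll3/4SI (-0.59).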

How the data were processed

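Gene and antibody UMI counts per cell barcode were deposited by the authors as 1 matrix per library. The submitters' processing notes name Cell Ranger 7.1.0 and mm10, and whether intron reads were counted is not given in the sources used here. Cells with at least 500 genes and 1000 gene UMIs and at most 10% mitochondrial UMIs were kept, and scored doublets (0.8% per 1000 cells) were removed, using scanpy 1.11.5. Clusters (2000 variable genes without the members, 30 principal components, 15 neighbours, Leiden resolution 1) were named where at least 3 markers led. UMIs were summed per library and class and given as CPM, with exact Poisson or Clopper-Pearson 95% intervals. Genes were compared on log2(CPM + 1) at a mean of at least 10 CPM, with no test, since each group had 1 library; the comparison code was checked on simulated data. Named genes were the mitochondrial members, nuclear members past 0.5 or among the 5 highest or lowest in HSC/MPP-like and granulocyte-like cells, families with alternative forms, X-linked members and Sdha to Sdhd; others, named for their stage or for all classes, were chosen after their values were seen. Members and lists were chosen with earlier results of these data known.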

Additional observations from a re-analysis of the deposited data

Results flagged for a closer look

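Cox6b2 in Mll4SI went in opposite directions against control in different cell classes. The log2 difference of CPM + 1 was 0.90 in early granulocyte-like cells and 0.85 in monocyte-like cells, and -0.79 in erythroid-like cells. The erythroid-like class also raised 9 megakaryocyte markers. Each class had 1 library a group, and the difference between the classes was not tested.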

How the results depend on the processing

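Values are log2 differences from control, in the order Mll3SI, Mll4SI, Mll3/4SI. No paired analysis was possible because each group had 1 library. Of 102 alternatives to the 12 summed shares, 24 left the value within its counting interval and 64 moved it. The other 14 turned the sign of a value whose interval left out 0. A sign change of a value whose interval held 0 is not among the 14. This was so for the mitochondrial share of Mll3/4SI in HSC/MPP-like cells. Of 54 alternatives to the 6 counts of nuclear members past the fold, 17 moved the count by over 1.5 times. The cause was not tested. Including cluster 8, leaving out late granulocyte markers, weighting to the control's stage mix and counting members in early clusters only were chosen after seeing the data.

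For HSC/MPP-like cells the mitochondrial share (0.04, -0.12, -0.0043) was 0.0099 and 0.057 in Mll3SI and Mll3/4SI with no mitochondrial limit, 0.064, -0.11 and 0.013 at resolution 2, 0.024, -0.067 and 0.039 with Hashtag1 cells, 0.063 and -0.069 in Mll3SI and Mll3/4SI with Hashtag2 cells, and 0.024, -0.13 and 0.034 with median-of-ratios scaling. It was 0.0056 in Mll3SI with cluster 8, and in Mll4SI -0.098 as a mean over cells and -0.10 without late granulocyte markers. The nuclear share (-0.01, -0.08, 0.10) turned sign with Hashtag1 cells in Mll3SI (0.056) and Mll4SI (0.021; Mll3/4SI 0.19), with Hashtag2 cells in Mll3/4SI (-0.046; Mll3SI -0.089, Mll4SI -0.17), and in Mll3SI at resolution 2 (0.0024; Mll4SI -0.055) and with cluster 8 (0.010; Mll4SI -0.053, Mll3/4SI 0.13). It was -0.025, -0.097 and 0.14 with median-of-ratios scaling, and in Mll4SI -0.069 both as a mean over cells and without late granulocyte markers. The counts past the fold (1, 2, 3) were 0 in Mll3SI with 10 CPM added and with cluster 8, 4 in Mll4SI with Hashtag2 cells and 9 in Mll3/4SI with Hashtag1 cells.

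For pooled granulocyte-like cells the mitochondrial share (0.28, -0.42, -0.20) was 0.32, -0.46 and -0.25 with no mitochondrial limit, 0.29, -0.42 and -0.12 as a mean over cells, 0.45, -0.33 and -0.050 with Hashtag1 cells, 0.11, -0.51 and -0.35 with Hashtag2 cells, and 0.25, -0.28 and -0.087 with median-of-ratios scaling. It was 0.23, -0.41 and, turned, 0.23 at resolution 2, where early Mll3/4SI cells went from 334 to 1533, -0.0046 (turned), -0.015 and -0.068 in early clusters, and 0.11, -0.083 and, turned, 0.043 with the control's stage mix. The nuclear share (0.13, -0.24, -0.01) turned in Mll3/4SI as a mean over cells (0.12, -0.23, 0.022), at resolution 2 (0.11 in Mll3SI, 0.18 in Mll3/4SI), with Hashtag1 cells (0.24, -0.17, 0.061), with median-of-ratios scaling (0.10, -0.095, 0.10), in early clusters (0.0026, -0.15, 0.045) and with the control's stage mix (0.023, -0.087, 0.11). It was 0.024, -0.29 and -0.070 with Hashtag2 cells, and 0.13 and -0.24 in Mll3SI and Mll4SI over nuclear UMIs alone. The counts (2, 11, 2) were 0, 5 and 0 with 10 CPM added, 13, 6 and 0 with Hashtag1 cells, 1 and 5 in Mll3SI and Mll3/4SI with Hashtag2 cells, 1 and 7 in the same at resolution 2, 0 and 1 in Mll3SI and Mll4SI in early clusters, and 4 in Mll4SI with median-of-ratios scaling.

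The cells above the mitochondrial limit were 6.90%, 6.50%, 2.31% and 3.36% of the barcodes that passed the gene and UMI minimums in control, Mll3SI, Mll4SI and Mll3/4SI. HSC/MPP-like cells numbered 473, 444, 323 and 167, so members under 10 CPM rest on few UMIs.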
